A study of Mus musculus with 8 samples.

Results

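The Hedgehog ligands and the genes that make them ready for release were read in sorted lung stroma: the ligands Shh, Ihh and Dhh, the acyltransferase Hhat, the transporter Disp1, and the secreted carriers Scube1, Scube2 and Scube3. These 8 genes were taken by symbol from the authors' comparison table and joined by Ensembl identifier to the count table, which holds 49671 genes, and all 8 were found. RNA came from cells of adult mouse lung that were positive for a yellow fluorescent protein (YFP) reporter, from 4 Gli2creERT2-tdt:R26RYFP/SmoM2 mice and 4 Gli2creERT2-tdt:R26RYFP control mice. Both genotypes carry the Gli2creERT2-tdt allele, in which Gli2 drives a Cre that needs tamoxifen and that switches on YFP. The sort thus aims at cells with Gli2 expression at the time of induction and at their descendants. In the SmoM2 mice the same recombinase also releases SmoM2, an active form of the Hedgehog transducer Smoothened. The SmoM2 mice had 5 daily intraperitoneal doses of tamoxifen, each of 200 mg per kg; the dosing of the controls is not given in the sources used here.

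Hedgehog proteins are made as precursors that cut themselves and receive cholesterol, after which HHAT adds palmitate, and the doubly lipidated ligand leaves the producing cell through DISP1 with the help of SCUBE proteins. In the lung, Shh from epithelium signals to the mesenchyme beneath it, where PTCH1 and SMO receive the signal and GLI factors carry it out. Ihh is best known from growth-plate cartilage and gut epithelium, and Dhh from Schwann cells and the testis. GLI2+ stroma lies on the receiving side of this exchange, and its own ligand and release genes are described here.

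Per kb of exon, the data place the 8 genes at very unequal levels. The 3 ligands were near the lower limit of detection, Hhat and Scube3 were low, Disp1 and Scube1 were moderate, and Scube2 was the highest, at a mean of 28.6 CPM (counts per 1e6) per kb over the 8 libraries. None of the 8 genes was called different between SmoM2-labelled and control libraries at an adjusted p under 0.05, where 0% of the 20162 genes tested were called by edgeR's quasi-likelihood fit. Of these 20162 genes, 756 had an unadjusted p under 0.05. DESeq2, run on a larger set of 30032 genes without edgeR's filter on low counts, called 69. With no filter beyond a total above 0, edgeR tested 30158 genes and still called 0. A pair of libraries, 1 of each genotype, shared a pattern across several of the 8 genes.

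Library totals were 91.6 to 111.6 M units of estimated count. Among low values, the frequency peaked at 4 and 5 units and again at 8 and 9 and at 12 and 13, so 1 sequenced fragment was taken to add 4 units, which gives 22.9 to 27.9 M fragments per library. That step is an estimate. Values of 1, 2 and 3 units also occur, 5061 times for 1 unit against 4270 times for 4, which a fixed step of 4 does not give, and with 5 units per fragment all fragment numbers here would be lower in proportion. A count of 0 would then allow up to 3 fragments, 12 units or 0.101 to 0.137 CPM. The stromal gene Pdgfra, a receptor of lung fibroblasts, lay between 1345.4 and 2111.7 CPM in the 8 libraries, and the 15 stromal markers summed to 24760.1 to 35876.0 CPM in SmoM2-labelled and 22279.0 to 36440.6 CPM in control libraries. RNA of other cell types was present in every library. Among epithelial markers, Epcam was low, at 1.10 to 3.12 CPM. Abca3, a lipid transporter of alveolar type 2 cells, lay at 74.7 to 109.3 CPM, and the club cell gene Scgb1a1 at 23.5 to 77.7 CPM. The 14 immune markers summed to 500.6 to 1531.8 CPM in SmoM2-labelled and 493.0 to 690.6 CPM in control libraries. Among them, Lyz2, a lysozyme gene, lay at 236.7 to 722.8 CPM and Ptprc, the pan-leukocyte gene, at 23.6 to 93.0 CPM. In control library 4, Lyz2 gave 411.7 of the 690.6 CPM while Ptprc was at its lowest, so the sum did not follow Ptprc. SmoM2 library 3 and control library 4 stood apart from the other 6 on the first principal component, which held 33.8% of the variance over 11397 genes. Their log2 CPM correlated at 0.55 after the mean of each gene over the 8 libraries was subtracted, so 0.55 is a correlation of deviations. Both libraries were high in Sftpc, the surfactant gene of alveolar type 2 epithelium, at 563.9 CPM in SmoM2 library 3 and 991.8 CPM in control library 4, against 86.4 to 212.6 CPM in the other 6. Both were low in Col2a1, the main collagen of cartilage, at 82.3 and 25.2 CPM, against 95.6 to 599.6 CPM. The endothelial gene Cdh5 was also higher in them, at 10.4 and 44.4 CPM, against 3.01 to 8.60 CPM. Kdr, another endothelial gene, was not, at 8.37 and 16.6 CPM, against 9.40 to 34.15 CPM. Mesothelial markers summed to 117.3 to 243.9 CPM in SmoM2-labelled libraries and 290.8 to 528.5 CPM in control libraries, 6 of 10 of them with an unadjusted p under 0.05 and none called. In bulk RNA, fewer cells of a type and less RNA per cell cannot be told apart.

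Genes that report Hedgehog activity did not show the activation that the SmoM2 label names, so the libraries are called SmoM2-labelled. The target and receptor gene Ptch1 averaged 158.9 CPM in SmoM2-labelled and 172.5 CPM in control libraries, a log2 fold change of −0.12 (SE 0.27). It was 0.03 (SE 0.25) for Gli1, the transcription factor that the pathway induces, 0.23 (SE 0.34) for Hhip, a secreted trap for the ligands, and −0.04 (SE 0.12) for Gli2. The adjusted p was 0.9999 for all 4 (edgeR).

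The promoters of 4 of the genes are shown because their levels moved in company in the 2 libraries that stood apart: Ihh and Scube2 were highest there within each genotype, Hhat and Disp1 lowest. The sequences are from RefSeq on GRCm38.p6, minus strand, 5′ to 3′, from 250 bases before the transcription start to 30 after it. Capitals mark the GC box letters GGGCGG on either strand. The window of Ihh is chr1:74951643-74951922, that of Scube2 chr7:109865650-109865929, that of Hhat chr1:192771190-192771469 and that of Disp1 chr1:183221500-183221779.
Ihh: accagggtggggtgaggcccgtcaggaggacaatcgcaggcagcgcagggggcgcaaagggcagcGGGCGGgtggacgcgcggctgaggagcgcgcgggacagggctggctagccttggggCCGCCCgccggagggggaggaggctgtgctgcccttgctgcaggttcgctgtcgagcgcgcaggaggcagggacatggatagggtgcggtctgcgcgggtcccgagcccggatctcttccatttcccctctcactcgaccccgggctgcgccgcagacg
Scube2: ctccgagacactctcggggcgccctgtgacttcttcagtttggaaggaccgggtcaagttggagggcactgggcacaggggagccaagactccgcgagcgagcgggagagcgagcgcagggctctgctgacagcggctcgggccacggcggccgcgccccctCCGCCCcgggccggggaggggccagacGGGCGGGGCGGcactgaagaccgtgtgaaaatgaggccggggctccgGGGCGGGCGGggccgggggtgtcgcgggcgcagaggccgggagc
Hhat: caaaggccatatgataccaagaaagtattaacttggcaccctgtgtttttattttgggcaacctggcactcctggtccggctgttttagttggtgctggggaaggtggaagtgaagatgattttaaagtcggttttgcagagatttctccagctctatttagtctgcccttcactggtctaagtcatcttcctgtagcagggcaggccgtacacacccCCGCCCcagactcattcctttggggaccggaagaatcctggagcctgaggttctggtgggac
Disp1: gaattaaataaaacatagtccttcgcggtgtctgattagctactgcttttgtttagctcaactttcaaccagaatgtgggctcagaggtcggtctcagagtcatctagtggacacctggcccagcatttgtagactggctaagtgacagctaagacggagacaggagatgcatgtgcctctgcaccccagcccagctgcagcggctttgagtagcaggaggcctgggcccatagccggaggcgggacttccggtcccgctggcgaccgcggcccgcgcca

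The windows differ in base composition. Scube2 held 32 CG dinucleotides and 5 GC boxes, some of them overlapping, and Ihh held 29 CG dinucleotides and 2 GC boxes, so both are CpG-rich promoters above 92.7% and 89.8% of all 32851 promoter windows in CG count. The Disp1 window shown, the one at the annotated start of the gene, held 14 CG dinucleotides and no GC box, and Hhat 5 and 1. In windows not shown, Scube1 held 28 CG dinucleotides and 1 GC box, Scube3 16 and 0, and Dhh 11 and 4. A link between base composition and level was not tested. A GC box was present in 34.7% of all windows. The strong GLI letters GACCACCCA were in 0.24% of all windows, on either strand, and in none of the windows of the 7 genes that matched the table by symbol, which is a statement about these letters in these windows. Shh is not in the table.

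Shh encodes the ligand that lung epithelium sends to stroma. It lies on chromosome 5 from 28456815 to 28467256 in mm10 (GRCm38) and was read at 0.156, 0.103, 0.241 and 0.0663 CPM in SmoM2-labelled libraries 1 to 4, against 0.116, 0.209, 0.0872 and 0.439 CPM in control libraries 1 to 4. Those values are 1.75 to 6.5 fragments in SmoM2-labelled libraries and 2.0 to 13.0 fragments in control libraries. The groups overlapped, and within each genotype the library that stood apart had the highest value. Control library 4 had 13 fragments, with an exact Poisson 95% interval of 6.92 to 22.2, while SmoM2 library 4 had 2 after rounding, with an interval of 0.24 to 7.22; such intervals cover counting error only. The fitted log2 fold change was −0.59 (SE 0.65, 95% interval −2.08 to 0.89, edgeR adjusted p 0.9999). It was 0.04 without control library 4, so the direction rests on that library.

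Values of epithelial genes stand beside those of Shh. Nkx2-1, a transcription factor of lung epithelium, was at 6.84 CPM in SmoM2 library 3 and 9.70 CPM in control library 4, against 1.77 to 3.76 CPM in the other 6 libraries. The markers Sftpb, Sftpa1, Cdh1 and Abca3 were also highest in SmoM2 library 3 and control library 4. Some other epithelial markers went the other way. The club cell gene Scgb1a1 was at 23.5 CPM in SmoM2 library 3 and 33.8 CPM in control library 4, against 39.65 to 77.65 CPM in the other 6. Scgb3a2 and Krt5 were also lowest in SmoM2 library 3 and control library 4. The 15 epithelial markers summed to 314.1 to 1052 CPM in SmoM2-labelled libraries and 397.6 to 1621 CPM in control libraries, and none was at 0 in every library. Sftpc alone gave 563.9 of the 1052 CPM in SmoM2 library 3 and 991.8 of the 1621 CPM in control library 4. The median log2 fold change of the 15 markers was −0.45, with 13 of 15 below 0 and none called. Their part in the Shh values was not tested. On the opposite strand, exons of 9530036O11Rik and Gm26894 overlap those of Shh by 446 and 361 bases, and those genes had at most 9 and 5 units in any library.

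Ihh, on chromosome 1 from 74945315 to 74951672, had the largest difference among the 8 genes. It was read at 0.0584, 0.103, 0.195 and 0.0379 CPM in SmoM2-labelled libraries 1 to 4, against 0.286, 0.239, 0.142 and 0.380 CPM in control libraries 1 to 4. All but 1 of the SmoM2-labelled libraries lay below all the controls, the exception being SmoM2 library 3, so the groups overlapped. Summed over libraries, Ihh had 10 fragments in the SmoM2-labelled group (exact Poisson 95% interval 4.8 to 18.4) and 27 in the control group (17.8 to 39.3). The difference gave a log2 fold change of −1.40 (SE 0.61, 95% interval −2.78 to −0.02), with an unadjusted p of 0.0475 in edgeR and an adjusted p of 0.9999. Ihh passed the filter on low counts through the control libraries, where it was higher, and with no filter beyond a total above 0 its interval ran from −2.85 to 0.04, with an unadjusted edgeR p of 0.0561 and an adjusted p of 0.818. An unadjusted p under 0.05 was held by 3.75% of all genes tested and by 1 of the 8 genes here, and that count is not read as a result. The authors' deposited table gives Ihh means of 9.88 in SmoM2 and 26.2 in control, with a p of 0.109 and an adjusted p of 1.

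Cartilage genes are given beside Ihh, which chondrocytes express. Control library 4, the highest in Ihh, was the lowest of the 8 in Col2a1 and, at 6.12 CPM, also in Col10a1, the collagen of hypertrophic chondrocytes. The 13 cartilage markers had fitted values above 0 (median log2 fold change 0.63, none called). They summed to 403.6 to 2364.2 CPM in SmoM2-labelled libraries, against 166.9 to 1755.2 CPM in control libraries; their part in the Ihh values was not tested. Without both libraries that stood apart the Ihh log2 fold change was −1.74 (SE 0.67, edgeR adjusted p 0.787). Over the alternatives that fitted Ihh, the unadjusted p lay between 0.0148 and 0.131.

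Dhh encodes the ligand of Schwann cells. It lies on chromosome 15 from 98891152 to 98898540. It was read at 0.321, 0.274, 0.269 and 0.256 CPM in SmoM2-labelled libraries 1 to 4, against 0.296, 0.738, 0.229 and 0.127 CPM in control libraries 1 to 4. The SmoM2-labelled values lay close to one another and inside the range of the controls, whose highest was control library 2 and lowest control library 4. Its log2 fold change of −0.31 (SE 0.54, 95% interval −1.54 to 0.92, edgeR adjusted p 0.9999) was 0.36 without control library 2. That library was also the highest in Sox10, the factor that defines the Schwann lineage, at 0.479 CPM, with control library 3 next at 0.436 CPM. SmoM2 library 1 had the second highest Dhh and listed Sox10 at 0, as did control libraries 1 and 4. The 10 Schwann cell markers summed to 379.3 to 836.2 CPM in SmoM2-labelled and 347.3 to 807.4 CPM in control libraries, mostly from Pmp22, which stromal cells also express, and their part in the Dhh values was not tested.

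The Dhh count carries a further limit. Its exons share 546 bases on the same strand with those of Rhebl1, a small GTPase gene, and the authors' counting could split fragments between the 2 genes. Rhebl1 lay between 1.82 and 7.67 CPM and was highest in control library 4, the library with the lowest Dhh. SmoM2 library 3 had the second highest Rhebl1, at 5.28 CPM, with Dhh at 0.269 CPM. Control library 3 had the lowest Rhebl1 and the second lowest Dhh, at 0.229 CPM. Whether fragments were split was not tested. The antisense gene Gm49442 overlaps 1107 bases of Dhh exon and has no row in the count table, and the library kit as described does not mark strand.

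**Figure D1:**
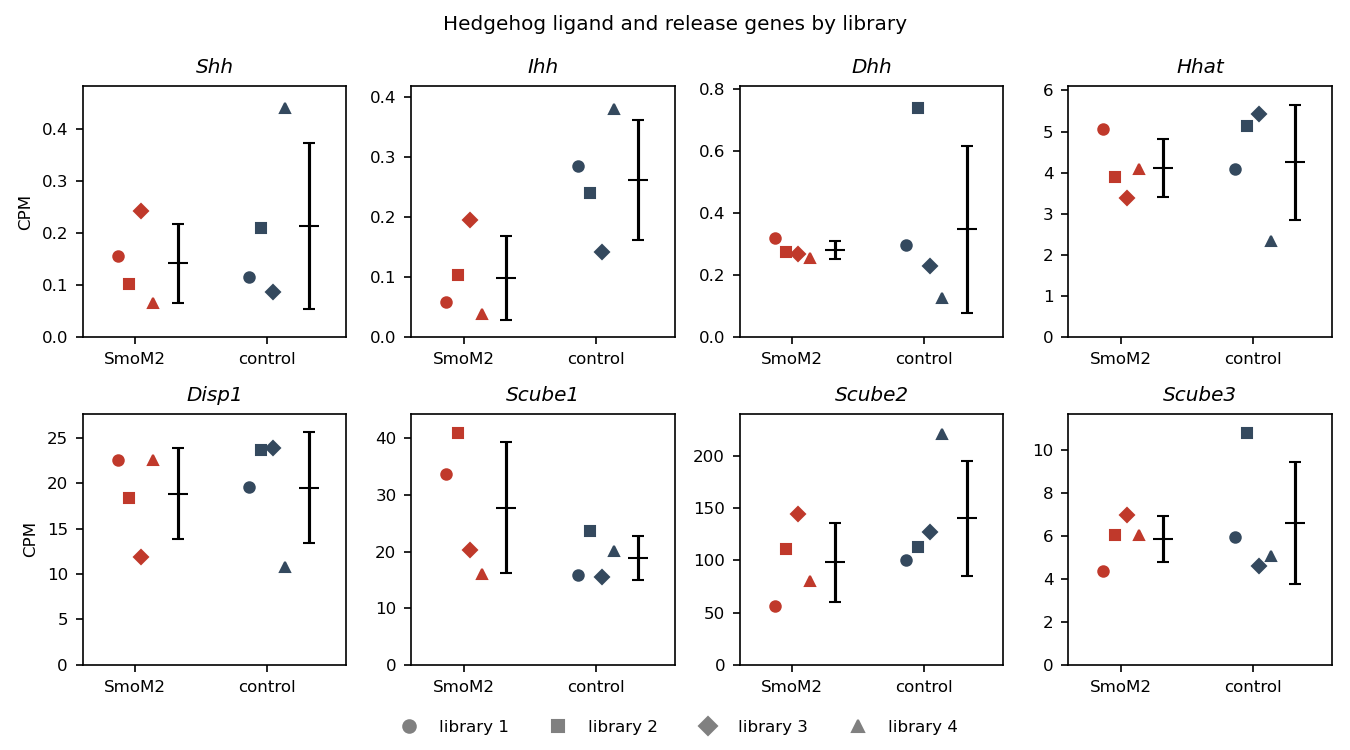
CPM of each of the 8 genes (y axis, from 0) in the SmoM2-labelled (left, red) and control (right, dark) libraries. Each symbol is 1 library, numbered 1 to 4 by its shape, and the black bars are the group mean ± SD (n = 4 each); the groups overlap for all 8 genes, and control library 4 is the highest of the 8 for Shh, Ihh and Scube2 and the lowest for Dhh, Hhat and Disp1.

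Hhat, the enzyme that palmitoylates the ligands, lies on chromosome 1 from 192496711 to 192771223. It was read at 5.07, 3.89, 3.38 and 4.09 CPM in SmoM2-labelled libraries 1 to 4, against 4.08, 5.14, 5.44 and 2.34 CPM in control libraries 1 to 4. The group means, 4.11 ± 0.71 CPM in SmoM2-labelled and 4.25 ± 1.40 CPM in control libraries (SD, n = 4 each), differed by less than the spread within either group. The log2 fold change was −0.05 (SE 0.28), and its 95% interval of −0.68 to 0.58 leaves room for a change of about 1.5-fold in either direction. Kcnh1 overlaps the end of the gene on the opposite strand with no shared exon.

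Disp1, the membrane transporter that frees lipidated ligand from the cell, lies on chromosome 1 from 183086266 to 183221522. It was read at 22.6, 18.4, 11.9 and 22.5 CPM in SmoM2-labelled libraries 1 to 4, against 19.6, 23.7, 23.9 and 10.8 CPM in control libraries 1 to 4. Apart from the low values of SmoM2 library 3 and control library 4, the libraries of both genotypes lay between 18.4 and 23.9 CPM. The log2 fold change was −0.05 (SE 0.28, 95% interval −0.70 to 0.60). Without those 2 libraries, a fit added after the data were seen, it was −0.08 (edgeR adjusted p 0.990); leaving out the lowest library of each genotype narrows the spread by construction, so that fit gives no tighter bound.

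Disp1 and Hhat ranked the 8 libraries in the same order, from control library 4 and SmoM2 library 3 at the low end to control library 3 at the high end. The ratio of Disp1 to Hhat CPM averaged 4.56 ± 0.81 in SmoM2-labelled and 4.60 ± 0.16 in control libraries (SD, n = 4 each). The shared order was noticed after the values were seen, and it includes the 2 libraries that stood apart, so no correlation is given. Relatives of both genes, named beside them for their kinship, were low: Hhatl, a relative of Hhat, lay between 0 and 0.229 CPM, and Disp2, a relative of Disp1, between 0.0897 and 1.11 CPM, the highest in control library 4.

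The 3 Scube genes encode secreted proteins with EGF repeats and a CUB domain that bind Hedgehog ligands and carry them off the cell. Scube2, on chromosome 7 from 109798676 to 109865679, was read at 56.6, 110.8, 144.3 and 80.0 CPM in SmoM2-labelled libraries 1 to 4, against 99.8, 112.2, 127.2 and 220.3 CPM in control libraries 1 to 4. The groups overlapped, and the highest value of each genotype again lay in the library that stood apart. The means were 97.9 ± 38.1 CPM in SmoM2-labelled and 139.9 ± 54.8 CPM in control libraries (SD, n = 4 each). In the fit, Scube2 had a log2 fold change of −0.51 (SE 0.33, 95% interval −1.27 to 0.24, edgeR adjusted p 0.9999). Without control library 4 it was −0.21, and without SmoM2 library 3 it was −0.76. Without both it was −0.46 (SE 0.24, edgeR adjusted p 0.905). Leaving out the highest library of each genotype narrows the spread by construction, so that fit gives no tighter bound. The authors' deposited table gives means of 9837 in SmoM2 and 14014 in control and an adjusted p of 1.

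Scube1, on chromosome 15 from 83604999 to 83725021, was the only one of the 8 genes with a higher mean in the SmoM2-labelled group. It was read at 33.7, 41.0, 20.3 and 16.1 CPM in SmoM2-labelled libraries 1 to 4, against 15.97, 23.7, 15.5 and 20.2 CPM in control libraries 1 to 4. SmoM2 libraries 1 and 2 lay above all controls, and SmoM2 libraries 3 and 4 lay among them. The log2 fold change was 0.56 (SE 0.30, 95% interval −0.12 to 1.23, edgeR adjusted p 0.9999), and 0.30 without SmoM2 library 2.

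The high Scube1 libraries were both from males, with sex read from Xist and Y-linked genes, which gave 2 males and 2 females in each group. Among males, Scube1 averaged 37.3 CPM in SmoM2-labelled and 15.8 CPM in control libraries, a difference in mean log2 CPM of 1.24 (2 libraries each). Among females it averaged 18.2 CPM in SmoM2-labelled and 22.0 CPM in control libraries, a difference of −0.28 (2 libraries each). The effect in males minus that in females was 1.52 on the log2 scale (SE 0.25), with an unadjusted p of 7.0e-04 and an adjusted p of 1 in edgeR's interaction test over 20162 genes, a test added after the data were seen. The difference between the sexes thus failed the correction. Among the other 7 genes, the within-sex difference in mean log2 CPM had opposite signs in males and females for 4. It was 0.28 in males and −1.11 in females for Shh, and 0.18 in males and −0.24 in females for Dhh. Hhat and Disp1 each differed by −0.08 in males, and in females by 0.10 for Hhat and 0.03 for Disp1. The sign was the same in both sexes for Scube2, at −0.51 in males and −0.55 in females, for Ihh, at −1.18 in males and −1.53 in females, and for Scube3, at −0.03 in males and −0.19 in females.

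Scube3, on chromosome 17 from 28142141 to 28174854, was read at 4.38, 6.06, 6.96 and 6.06 CPM in SmoM2-labelled libraries 1 to 4, against 5.97, 10.8, 4.63 and 5.08 CPM in control libraries 1 to 4. Control library 2 was the highest and the other 7 libraries lay between 4.38 and 6.96 CPM. The log2 fold change was −0.17 (SE 0.29, 95% interval −0.83 to 0.49, edgeR adjusted p 0.9999) and 0.16 without control library 2. That library was also the highest in Dhh. The ratio of Scube2 to Scube1 CPM was 1.68, 2.71, 7.13 and 4.98 in SmoM2-labelled libraries 1 to 4, against 6.25, 4.74, 8.19 and 10.9 in control libraries 1 to 4, so Scube2 was above Scube1 in all 8 libraries and the groups overlapped.

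**Figure D2:**
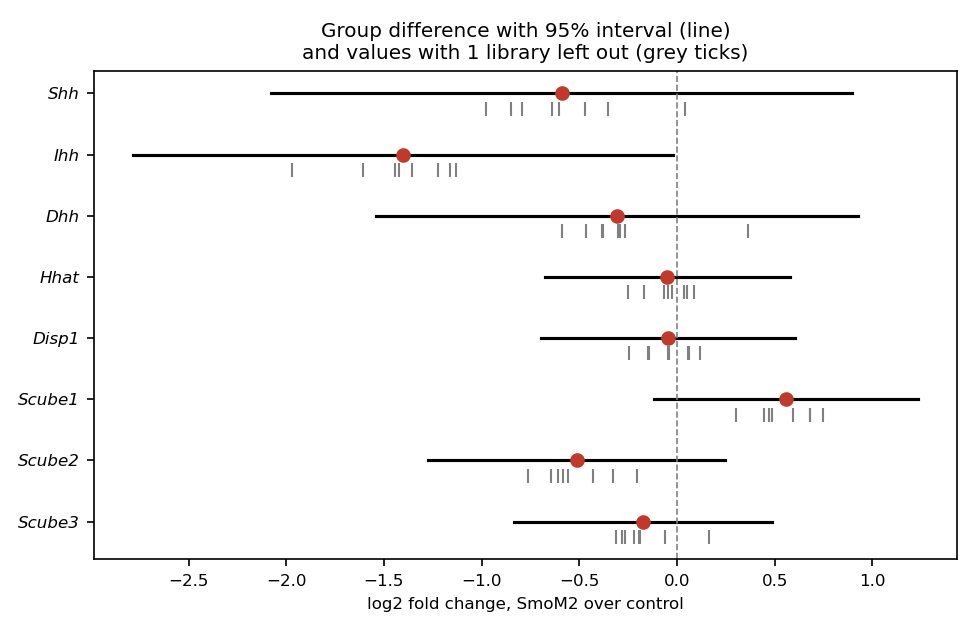
Log2 fold change of each gene, SmoM2-labelled over control (x axis), from edgeR's quasi-likelihood fit over all genes. Points are the fitted values, lines their 95% intervals, grey ticks the values with 1 library left out, and the dashed line is no difference; the interval of Ihh alone ends below 0, at −0.02, and no gene passed the adjusted threshold.

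Across the 8 genes, 7 had a fitted value below 0 and 1 above 0, with a median log2 fold change of −0.24, beside −0.0042 for all 20162 genes tested. The groups overlapped in CPM for all 8, where 2.44% of the genes tested had no overlap. All 8 passed the filter on low counts, Shh, Ihh and Dhh through a threshold of about 10 units that is less than 3 fragments. When counts were divided by 4 and rounded, these 3 ligands no longer passed the filter, and the other 5 kept their direction.

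Levels of different genes were compared per kb of annotated exon. Scube2 averaged 28.6 CPM per kb over the 8 libraries, ahead of Disp1 at 3.67, Scube1 at 2.37, Scube3 at 0.706 and Hhat at 0.457. Dhh averaged 0.0713, Shh 0.0623 and Ihh 0.0591 CPM per kb. Neighbours were taken from the order of mean log2 values in these same 8 libraries, so the pairs and their direction were not fixed beforehand. Each p below covers only how steadily a pair differed across libraries of both genotypes. Scube2 exceeded Disp1 in 8 of 8 libraries by 2.92 ± 0.96 on the log2 scale (SD, n = 8, exact sign-flip permutation p 0.00781, the smallest that 8 libraries allow, adjusted p 0.0182 over 7 neighbouring pairs, two-sided). Scube1 exceeded Scube3 by 1.72 ± 0.66 and Hhat exceeded Dhh by 2.80 ± 0.51, each in 8 of 8 libraries with the same adjusted p from the exact permutation test. The pairs Disp1 and Scube1, and Scube3 and Hhat, did not pass (both adjusted p 0.0547, exact permutation test). Among the 3 ligands, neighbours did not differ beyond the spread between libraries, with adjusted exact permutation p of 0.562 for both pairs.

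The order depends in part on the length used. With the longest annotated transcript, 3247 bases for Hhat where its exons together span 9150, Hhat exceeded Scube3 by 0.51 ± 0.54 (SD, n = 8, 7 of 8 libraries, adjusted exact permutation p 0.0410) and Scube1 and Disp1 differed by 0.02. Scube2 was the highest and the 3 ligands the lowest under both lengths.

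**Figure D3:**
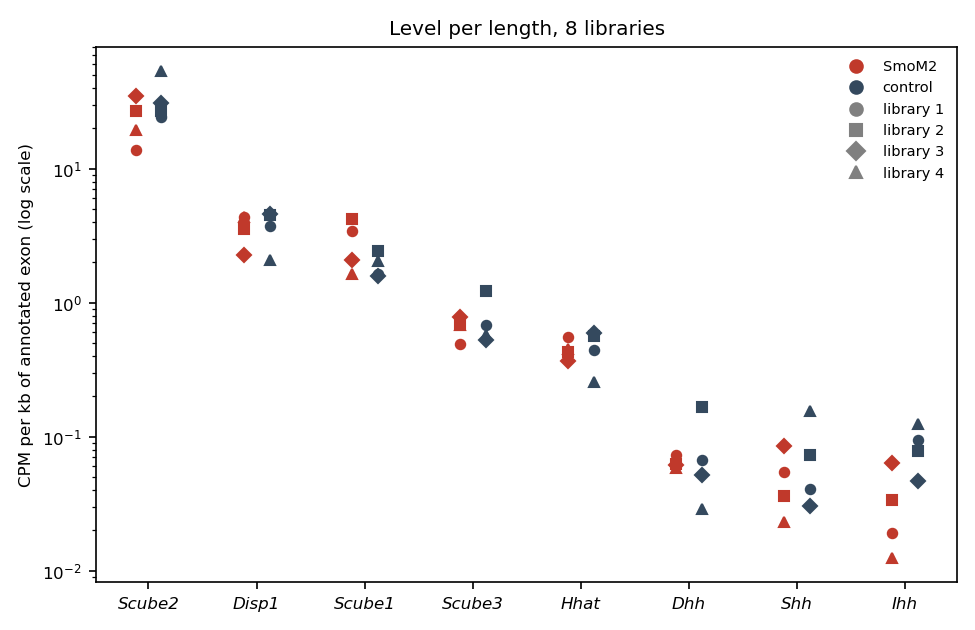
CPM per kb of annotated exon (y axis, log scale) for the 8 genes, from the highest mean to the lowest. Each symbol is 1 library, red for SmoM2-labelled (left) and dark for control (right), with shapes for library numbers 1 to 4; Scube2, at 13.6 to 53.1, lies above the 7 other genes in all libraries, and the 3 ligands lie at 0.0124 to 0.168.

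The genes with which each of the 8 shared its profile over the 8 libraries were taken as the 3 with the highest Pearson correlation of log2 CPM among 13199 genes averaging 1 CPM or more, and such values are high by selection and carry no test. For Shh they were Cth (0.978), Gstm6 (0.976) and Ttc38 (0.961), and for Ihh they were Oat (0.972), Gstm7 (0.965) and Fkbp8 (0.962). For Dhh they were Kank1 (0.989), Col14a1 (0.965) and Gria4 (0.965). For Scube2 they were Ifitm1 (0.984), Mtus1 (0.980) and Slc44a3 (0.979). For Hhat they were Itgb4 (0.979), S100a13 (0.976) and Xrcc5 (0.972), and for Disp1 they were Stk39 (0.983), Dnm1 (0.979) and Grin3a (0.979). Without both libraries that stood apart, the first of these correlations was 0.893 for Hhat and 0.787 for Disp1 over 6 libraries. Scube1 was most like Parva (0.929), Gpx1 (0.920) and D11Wsu47e (0.895), and Scube3 most like Igf2 (0.959) and Zfp711 (0.959). Over the 6 libraries the first of these was 0.958 for Scube1 and 0.989 for Scube3.

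**Figure D4:**
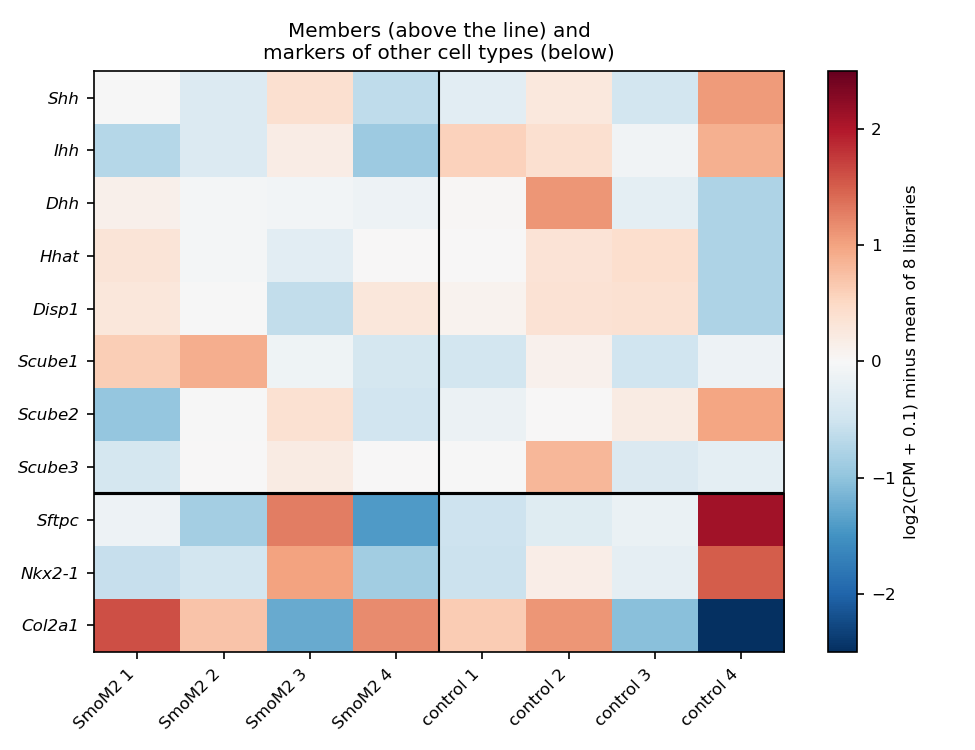
Log2(CPM + 0.1) of each gene minus its mean over the 8 libraries (colour, red above and blue below the mean, saturated at 2.5), with SmoM2-labelled libraries left and control libraries right of the vertical line. Rows above the horizontal line are the 8 genes and rows below it are chosen markers of alveolar epithelium (Sftpc, Nkx2-1) and cartilage (Col2a1). SmoM2 library 3 and control library 4 are red for Shh, Ihh, Scube2, Sftpc and Nkx2-1 and blue for Hhat, Disp1 and Col2a1. Epithelial markers that are not drawn were divided in those libraries: Sftpb, Sftpa1, Cdh1 and Abca3 were highest there, and Scgb1a1, Scgb3a2 and Krt5 lowest.

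Genes on the receiving side were far more abundant than the ligands. All 13 genes of the reception list, from the receptor Ptch1 to the GLI factors, were tested, of which 7 had a fitted value above 0 and 6 below 0, none called, with a median log2 fold change of 0.03. The most abundant were the co-receptor gene Gas1, at 560.5 CPM in SmoM2-labelled and 525.5 CPM in control libraries, the co-receptor gene Boc, at 405.2 CPM in each group, and Hhip, at 414.3 CPM in SmoM2-labelled and 353.3 CPM in control libraries. Cdon, a further co-receptor gene, averaged 114.9 CPM in SmoM2-labelled and 154.5 CPM in control libraries (log2 fold change −0.43, SE 0.43), and was picked out by its size.

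A second list held 23 genes that process ligands or form the heparan sulphate matrix through which they spread. Of these 22 were tested, since the glypican gene Gpc5 was at 0 in all 8 libraries. Fitted log2 fold changes ran from −0.74 to 0.37, 11 above 0 and 11 below it, none called. The most abundant was Hspg2, which encodes perlecan, at 2127.2 CPM in SmoM2-labelled and 1728.8 CPM in control libraries. Gpc3, a glypican that binds Hedgehog ligands, averaged 807.8 CPM in SmoM2-labelled and 938.3 CPM in control libraries (log2 fold change −0.22, SE 0.11), and the sulphatase gene Sulf1 averaged 278.1 CPM in SmoM2-labelled and 239.4 CPM in control libraries. Gpc1, named after its values were seen, had the only unadjusted p under 0.05, at 65.5 CPM in SmoM2-labelled and 82.7 CPM in control libraries (log2 fold change −0.34, SE 0.12, edgeR adjusted p 0.9999). The proteases ADAM10 and ADAM17 shed cell-surface proteins, and their genes, also added after the values were seen, averaged 77.2 and 126.6 CPM in SmoM2-labelled libraries, against 72.0 and 114.6 CPM in control libraries.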

How the data were processed

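RNA of sorted YFP+ lung cells was sequenced in 8 libraries, 4 per group. The authors deposited estimated counts per Ensembl gene, already whole numbers. Tools named in the submitters' processing notes are FastQC, HISAT, StringTie and DESeq, and the build is mm10. Per the file headers, the authors' comparison table gives their normalised mean signal per group, the ratio (fold) of those means, its log2 value, and p-values. The deposited counts over size factors gave their group means within a relative difference of 2.28e-09, which fixes its direction as SmoM2 over control. Column names give the group and a number from 1 to 4 but no animal, so libraries carry those numbers. The titles number 8 animals.

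Differences were tested with edgeR 4.0.16 in R 4.3.3 (glmQLFit, robust, TMM factors, filterByExpr, Benjamini-Hochberg over 20162 genes, threshold 0.05), after a test on simulated data. Each SE was taken as |log2 fold change| divided by √F. CPM uses TMM library sizes, and log2 CPM a prior count of 2. Levels per length used GENCODE M21 exons. DESeq2 1.42.0 and limma 3.58.1 gave alternatives. Chi-square over degrees of freedom was 25.5 to 116 for the 28 library pairs, so all were kept. Symbols came from the reference for 99.3% of identifiers. The 8 genes and all lists were chosen with earlier results of these data known. Named genes are the 8, the 3 most alike genes of each (with an exception that is not reported here), the 3 most abundant of each pathway list, 4 pathway reporters and overlapping genes. Outside that rule, Cdon, Gpc1, Gpc5, Adam10, Adam17, Hhatl, Disp2 and the single cell type markers were named after their values were seen. Motifs were read in RefSeq promoter windows. Neuroendocrine, immune, endothelial and stromal marker lists had 0 called genes, with median log2 fold changes of 0.20, 0.55, −1.05 and −0.02.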

Additional observations from a re-analysis of the deposited data

How the results depend on the processing

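No alternative brought any of the 8 genes past the adjusted threshold; the smallest adjusted p was 0.709, for Ihh without SmoM2 library 3. Genes called over the whole table numbered 0 in the main test (756 at an unadjusted p under 0.05), and 0 to 1 with 1 library left out, the 1 being without SmoM2 library 4. The DESeq2 Wald test called 69, of 30032 genes tested without edgeR's filter on low counts. Without that filter edgeR called 0 of 30158 genes. With 1 library left out, the log2 fold change lay between −0.98 and 0.040 for Shh (above 0 without control library 4), −1.97 and −1.13 for Ihh, −0.59 and 0.36 for Dhh, −0.25 and 0.089 for Hhat, −0.25 and 0.12 for Disp1, 0.30 and 0.75 for Scube1, −0.76 and −0.21 for Scube2, and −0.31 and 0.16 for Scube3. Sign changes for Disp1 and Hhat came without SmoM2 library 3, control library 2 or control library 3. With limma-voom the value was 0.018 for Dhh and 0.033 for Hhat, each above 0; the cause was not tested. Ihh, Scube1 and Scube2 kept their direction in each alternative that fitted them. The 3 ligands were not fitted with a mean of at least 1 CPM or with counts divided by 4, since they failed those filters. Column numbers are in no label, and same-numbered libraries did not deviate in company (correlations −0.18 to 0.14); with the column number as a replicate block, an alternative added after the data were seen like the fit without both libraries that stood apart, 0 genes were called and the value was 0.0052 for Hhat. The number of neighbouring pairs told apart per length was 3, against 4 with the longest transcript and 3 to 4 with 1 library left out. Depth limits Shh, Ihh and Dhh, at 1.0 to 18.5 fragments per library.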
